A study of Mus musculus with 8 samples.

Results

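The insulin, IGF and mTOR signaling genes examined here were Insr, Igf1r, Irs1, Irs2, Akt1, Akt2, Mtor and Tsc2, taken as every non-control probe that the array files name for one of these 8 genes. No probe of the array carried the name, a RefSeq accession or the description of Irs2, so that 7 genes with 15 probes were measured, out of 27373 gene names on the array. Hippocampal RNA came from 4 BTBR T+ Itpr3tf/J (BTBR) and 4 C57BL/6J (B6) mice, all labeled male, 5 months old and free of drug treatment, and each mouse was hybridized to 1 single-color Agilent array. BTBR is an inbred strain used as a model of autism spectrum disorders, and B6 is the wild type control strain. In the labels of the BTBR mice the field for background also holds C57BL/6J, and the group was taken from the other fields, which name BTBR. The strains are different inbred lines, so a difference between them cannot be told apart from any of the many loci at which they differ. The 8 arrays sat on 2 slides, with replicates 1 and 2 of both strains on slide 1 and replicates 3 and 4 on slide 2.

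Insulin and the insulin-like growth factors bind receptor tyrosine kinases, which phosphorylate the insulin receptor substrates. These recruit PI3 kinase, whose lipid product brings the Akt kinases to the membrane. Akt phosphorylates tuberin, the product of Tsc2, and thereby relieves the brake that the TSC complex puts on the GTPase Rheb, the activator of the mTOR kinase. In the hippocampus the route controls protein synthesis at synapses, and loss of Tsc1 or Tsc2 causes tuberous sclerosis, a disorder in which autism is frequent. Much of this regulation is by phosphorylation, which an RNA array does not measure.

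The array reads each gene through 60-base probes, and the results turned on 7 of them. The part from base 31 to base 60 of each is given 5′ to 3′ as the array files hold it, to show what was read in Tsc2, in the genes with probes whose strains stood apart (Akt2 and Mtor), and at the 2 of 4 Igf1r probes that differed most. Capitals mark the letters AATAAA, the most common polyadenylation signal.
Tsc2 A_51_P345714: tgtcctgactgtactcctacatgaAATAAA
Akt2 A_51_P408044: aactggcaggacgtggtacagaaaaagctc
Akt2 A_52_P2977: caccaagacagtattgggccccttggactt
Igf1r A_51_P474538: aactagttcaatgtttcattgcatttttgt
Igf1r A_51_P318365: attgagtctcttcgttctctgcctttttct
Mtor A_52_P67643: catctctatcAATAAAaatgtatcaattag
Mtor A_51_P282179: aagaaaactcatcataaacattgctgacag

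The letters AATAAA stood in this stretch in 2 of the 15 probes of these genes and in 3.097% of all 41174 probes of the array, and the same letters on the other strand (TTTATT) in 0 of the 15 and in 2.06% of all. The single Tsc2 probe ends on them, and the file places it on mm9 at chr17:24732761-24732803 on the minus strand, a span of 43 bases for a probe of 60 bases. The Akt2 probes lie at chr7:28421973-28422113, a span longer than the probe, and at chr7:28423859-28423918. The Igf1r probes shown lie at chr7:75376998-75377057 and chr7:75371556-75371615, and the Mtor probes at chr4:147829016-147829075 and chr4:147931250-147931309. No 2 probes of different genes in the set shared a run of more than 9 bases, and the GC content of the probes ranged from 26.7% to 55.0%. Exon and UTR positions of the probes, and strain variants under them, were not tested.

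Of these genes, only Tsc2 passed the test between strains, lower in BTBR, and the call was lost in 9 of 18 alternative limma analyses and was not made by the rank product, a test on the ranks of differences between arrays. Its probe fell by 0.38 on the log2 scale, so that the signal dropped by 23.2% on a linear scale. Both Akt2 probes and 1 of 4 Igf1r probes were brighter in BTBR by 0.30 to 0.35 without passing the test, and 1 of 2 Mtor probes, close to background in BTBR, was dimmer without passing it (-0.45, but -1.55 and called with the processed signal). The tested probes of Insr, Irs1 and Akt1 differed by 0.104 or less. Differences are BTBR minus B6 in normalized log2 intensity, and a call was an adjusted p under 0.05 in limma, adjusted over all 27982 probes tested. In whole tissue, fewer cells of a type and less RNA per cell cannot be told apart.

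**Figure D1:**
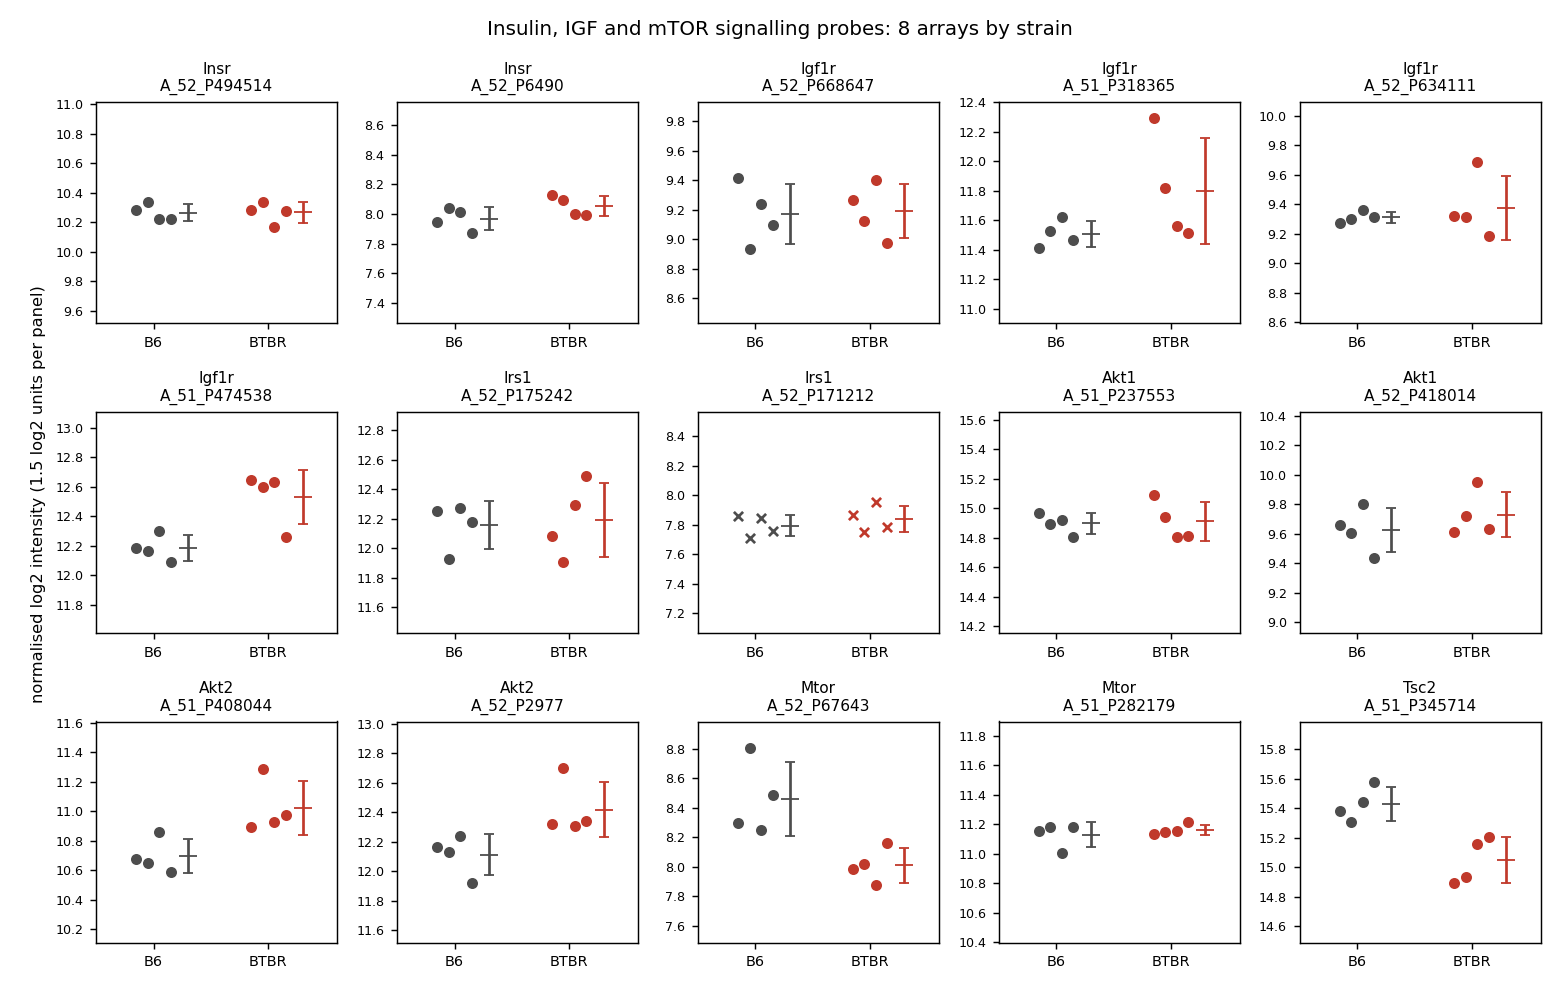
Normalized log2 intensity (vertical axis, 1.5 log2 units in each panel) of the 15 probes on the 4 B6 arrays (gray) and the 4 BTBR arrays (red), points from left to right being replicates 1 to 4, with the mean and SD beside them; crosses mark the Irs1 probe that was not tested. In 4 panels, both Akt2 probes, 1 Mtor probe and Tsc2, the strains do not overlap.

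Of the 15 probes, 14 were bright enough to be tested and 12 were well above background on all 8 arrays. One of the 14 was called, or 7.14%, where 7.61% of all tested probes were called, 925 higher and 1204 lower in BTBR (3.31% and 4.30%). By gene, 1 of 7 was called (14.3%), against 10% of the 18399 gene names tested (4.28% higher and 5.77% lower in BTBR by the probe with the smallest p). The arrays of the strains did not overlap for 4 of the 14 probes (28.6%), against 14.2% of all probes, and with arrays centered on their medians for 2 of the 14, against 13.1% of all probes. The median difference of the 14 probes was 0.05, and 12 were above 0 (53.2% of all tested probes were) and 2 below, or 8 above and 6 below with arrays centered on their medians (47.1% of all above). Without adjustment, 5 of the 14 reached a limma p under 0.05, against 18.5% of all probes. These counts describe 14 probes, several of which read the same gene.

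Signal over background and the number of arrays set what could be seen. Between 56.8% and 71.9% of probes were well above background on an array, lowest on B6 replicate 1, with median spot intensities from 378 to 489 over backgrounds from 42 to 56 and 0 saturated spots. The 95% confidence intervals of the 14 differences reached from 0.14 to 0.36 to either side. With 4 arrays against 4, the smallest exact permutation p (two-sided) is 0.0286. The brightest probes of 13 markers of hippocampal neurons were well above background on every array. Spink8 read 13.52 ± 0.37 in B6 and 11.49 ± 1.65 in BTBR, and C1ql2 read 11.65 ± 0.64 and 9.78 ± 0.99 (SD, n = 4 each). Dsp, Neurod6, Prox1 and Zbtb20 were also lower in BTBR and Wfs1 was higher, and none of these genes was called. The mean level over the 13 genes lay between 13.10 and 14.06. That mean was lowest on BTBR replicates 1 and 2, at 13.10 on both, and BTBR replicate 1 alone had thalamic markers at a mean of 13.35, where the other arrays lay between 10.33 and 10.93.

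**Figure D2:**
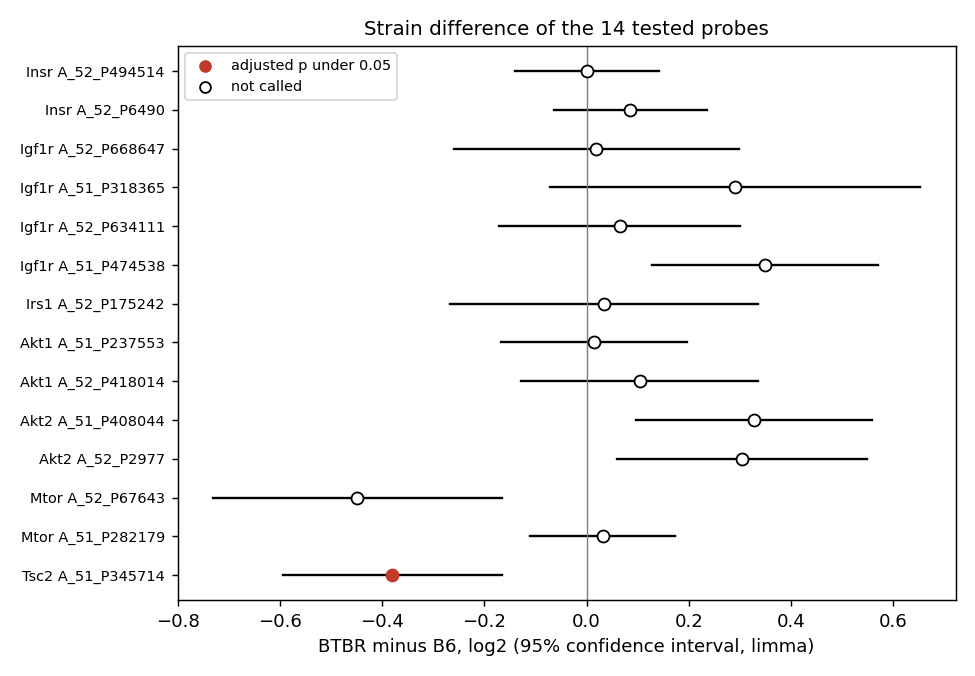
Difference BTBR minus B6 in normalized log2 intensity (horizontal axis) for each of the 14 tested probes, with its 95% confidence interval from limma; filled, called at an adjusted p under 0.05. The interval of Tsc2 runs from -0.60 to -0.17, and those of 4 further probes (Igf1r A_51_P474538, both Akt2 probes and Mtor A_52_P67643) leave out 0 without an adjusted p under 0.05.

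Insr, the insulin receptor, was read by a pair of probes on chromosome 8. At A_52_P494514 the B6 arrays read 10.28, 10.34, 10.22 and 10.22, and the BTBR arrays 10.28, 10.34, 10.17 and 10.28. The strains overlapped throughout, the means were 10.26 ± 0.06 and 10.26 ± 0.07 (SD, n = 4 each), and the 95% interval of the difference ran from -0.14 to 0.14. The dimmer probe A_52_P6490 was well above background on 3 of 4 arrays of each strain and read 7.94, 8.04, 8.01 and 7.87 in B6 and 8.126, 8.096, 7.998 and 7.992 in BTBR. Its difference was 0.09, with a limma adjusted p of 0.566, and 0.52 with the processed signal (adjusted p = 0.371).

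Igf1r, the receptor of insulin-like growth factor 1, was read by 4 probes along 44.5 kb of chromosome 7, with differences from 0.02 to 0.35 and none called. The probe farthest along the plus strand, A_51_P474538, read 12.18, 12.17, 12.30 and 12.09 in B6 and 12.65, 12.60, 12.63 and 12.26 in BTBR. BTBR replicates 1 to 3 lay above all B6 arrays, and replicate 4 lay just below the highest B6 array. The difference was 0.35 ± 0.10 (SE, n = 4 per strain; 95% interval 0.13 to 0.57), with a limma adjusted p of 0.0697, and it was 0.45 on slide 1 and 0.25 on slide 2. Without BTBR replicate 4 the difference was 0.44 and limma called it, with an adjusted p of 0.0091.

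The Igf1r probe A_51_P318365, 5.44 kb away, read 11.41, 11.52, 11.62 and 11.47 in B6 and 12.30, 11.82, 11.56 and 11.51 in BTBR. Only BTBR replicates 1 and 2, both on slide 1, stood above the B6 arrays. The difference of 0.29 (limma adjusted p = 0.393) came from slide 1 alone (0.59, and -0.01 within slide 2). The test of strain by slide in limma gave it an adjusted p of 0.487 (0.0311 unadjusted). It was 0.12 without BTBR replicate 1, the array with high thalamic markers. Oligodendrocyte markers, 6 tested and 0 called, had a mean level of 14.80 to 14.99 in B6 and of 15.30, 15.56, 14.87 and 14.54 on BTBR replicates 1 to 4, and were thus also highest on BTBR replicates 1 and 2. The part of either list in this value was not tested further. The other Igf1r probes overlapped between strains: A_52_P634111 differed by 0.06 (limma adjusted p = 0.81) and A_52_P668647, which the files place on another transcript of the gene, by 0.02 (limma adjusted p = 0.958). With the median over the 4 probes, Igf1r differed by 0.16, with a limma adjusted p of 0.424.

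Irs1, an adaptor that the active receptors phosphorylate, was bright at A_52_P175242, where the B6 arrays read 12.25, 11.92, 12.27 and 12.18 and the BTBR arrays 12.08, 11.91, 12.29 and 12.49. The spread within each strain was larger than the difference of 0.03, whose 95% interval ran from -0.27 to 0.34. The probe A_52_P171212, 3.87 kb away, was well above background on 1 of 8 arrays and was not tested. It read 7.79 ± 0.07 in B6 and 7.84 ± 0.09 in BTBR (SD, n = 4 each), near the floor of the arrays.

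Akt1, the broadly expressed kinase of the Akt family, did not differ at either probe beyond the spread. Its bright probe A_51_P237553, spotted 10 times on each array, read 14.97, 14.89, 14.92 and 14.80 in B6 and 15.09, 14.94, 14.80 and 14.81 in BTBR. The strains overlapped, with BTBR replicate 1 the highest array and a difference of 0.01 (95% interval -0.17 to 0.20). The probe A_52_P418014, which the files place over a span of 9267 bases, differed by 0.10 (limma adjusted p = 0.671), with B6 arrays from 9.44 to 9.80 and BTBR arrays from 9.61 to 9.95. When 1 array was left out, that difference ranged from 0.03 to 0.16.

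Akt2, the kinase of the family best known for insulin-driven glucose uptake, was brighter in every BTBR array at both of its probes. At A_51_P408044 the B6 arrays read 10.68, 10.65, 10.86 and 10.59, and the BTBR arrays 10.89, 11.29, 10.93 and 10.98. At A_52_P2977, 1.89 kb away, they read 12.17, 12.13, 12.24 and 11.92 in B6, and 12.32, 12.70, 12.31 and 12.34 in BTBR. The strains did not overlap at either probe, and BTBR replicate 2 was the highest array at both.

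The Akt2 differences were 0.33 ± 0.10 and 0.30 ± 0.11 (SE, n = 4 per strain), with the smallest exact permutation p that this design allows (0.0286) for each. After adjustment over all probes neither was called by limma, with adjusted p of 0.103 and 0.158. The differences had the same sign on both slides, 0.43 and 0.23 at the first probe and 0.36 and 0.25 at the second. Without BTBR replicate 2 they were 0.24 and 0.21, and with arrays centered on their medians in place of quantile normalization BTBR replicate 3 fell below B6 replicate 3 at both probes. Both probes read the same RNA of the same mice and are not independent measurements of the gene.

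Mtor encodes the kinase at the center of both mTOR complexes, and was read by 2 probes, neither of them called. The probe on its RefSeq transcript, A_51_P282179, read 11.16, 11.18, 11.005 and 11.18 in B6 and 11.13, 11.15, 11.15 and 11.21 in BTBR. The strains overlapped, with a difference of 0.03 (95% interval -0.11 to 0.17), one of the narrowest intervals of the set. The probe A_52_P67643, 102 kb away on the same strand and placed by the files on an Ensembl transcript of the gene, read 8.30, 8.80, 8.25 and 8.48 in B6 and 7.99, 8.02, 7.87 and 8.16 in BTBR.

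All 4 BTBR arrays lay below all B6 arrays at that second Mtor probe, which rose well above background on 4 arrays of B6 and on 2 of BTBR. The difference was -0.45 ± 0.12 (SE, n = 4 per strain; 95% interval -0.73 to -0.17), with a limma adjusted p of 0.0691 and an exact permutation p of 0.0286. It was -0.55 on slide 1 and -0.35 on slide 2. Its size depended on the signal used: with the processed signal of the scanner software it was -1.55 and called by limma (adjusted p = 0.0084), and in the authors' own matrix it was -0.28 (adjusted p = 0.104).

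Tsc2 encodes tuberin, the subunit of the TSC complex that switches Rheb off, and its probe A_51_P345714 was among the bright ones. The B6 arrays read 15.38, 15.31, 15.45 and 15.58, and the BTBR arrays 14.89, 14.94, 15.16 and 15.21. Every BTBR array lay below every B6 array, and the lowest readings were those of BTBR replicates 1 and 2. The means were 15.43 ± 0.11 in B6 and 15.05 ± 0.16 in BTBR (SD, n = 4 each).

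The Tsc2 difference was -0.38 ± 0.09 (SE; 95% interval -0.60 to -0.17), with a limma adjusted p of 0.0432 and an exact permutation p of 0.0286. It was -0.43 on slide 1 and -0.33 on slide 2. The call sat close to the threshold: it was kept in 9 of 18 alternative limma analyses, and it was lost without any one of B6 replicates 1 to 4 or BTBR replicates 1 and 2 (adjusted p from 0.0596 to 0.119), while the difference stayed between -0.44 and -0.33. One probe carries this result, and no other probe of the array is named Tsc2.

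Among cell type markers, the mean level over 6 astrocyte markers was 13.67 to 13.78 on the B6 arrays and 13.36 to 13.47 on the BTBR arrays, without overlap; 1 of the 6 was called, Gfap, at -1.30, and the other 5, not called, were at -0.35 (Aqp4), -0.29 (Slc1a2), -0.24 (Slc1a3), -0.06 (Gja1) and 0.19 (Aldh1l1). Of 13 markers of hippocampal neurons 1 was called, Syt1, at -0.71 at 1 of its 6 probes and 0.035 at its brightest. The uncalled ones went both ways, from -2.03 at Spink8 to 0.71 at Wfs1, and the mean of the 13 ranged from 13.65 to 14.06 in B6 and from 13.10 to 13.89 in BTBR, with the low BTBR values on replicates 1 and 2, where Tsc2 was also lowest. Oligodendrocyte markers were at 14.80 to 14.99 in B6 and at 15.30, 15.56, 14.87 and 14.54 on BTBR replicates 1 to 4. Thalamic markers were high on BTBR replicate 1 alone, at 13.35. The part of these marker lists in the Tsc2 difference was not tested.

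Among all other genes, those whose level followed the Tsc2 probe most closely over the 8 arrays were Them4, encoding an acyl-CoA thioesterase, with a Pearson correlation of 0.991, Pip5k1a, encoding a lipid kinase that makes PIP2, with 0.989, and Thsd4, encoding a protein of the extracellular matrix, with 0.987. All 3 were lower in BTBR, with differences of -0.61, -0.68 and -1.61, so that the correlation holds the strain difference as well as the spread within strains.

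The rank product, the test that the study's methods name, was run with 100 permutations and called at a percentage of false predictions (pfp) of 0.05 or less. It called none of the 14 probes and 1098 of all 27982 (3.92%). The lowest pfp was 0.213, at Mtor A_52_P67643, and that of Tsc2 was 0.304. By unadjusted limma p under 0.05, 5 of the 14 passed.

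A list of 90 further genes of the pathway, from ligands to outputs, gives the setting of these genes. All 90 had a probe and 86 were tested, with 158 probes: 4 were higher, 3 lower and 79 not called, or 8.14% called against 10% of all gene names. By the probe with the smallest p of each gene, the median difference was 0.05 over the list and 0.02 over all 18399 gene names tested. No gene of the list was called in both directions. The binding proteins (7 tested), receptors (2), adaptors (8), Akt kinases and their regulators (5), TSC and Rheb genes (4), mTOR complex subunits (8) and energy and stress inputs (7) had 0 called members.

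**Figure D3:**
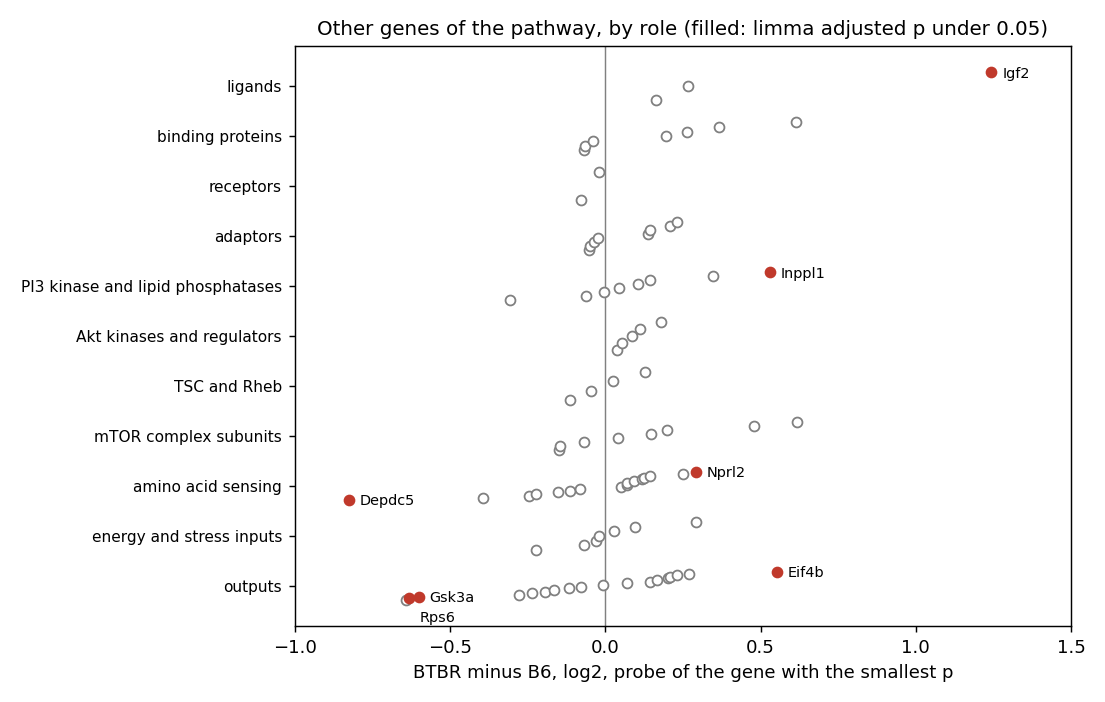
Difference BTBR minus B6 in log2 (horizontal axis) of 86 further genes of the pathway, each by its probe with the smallest limma p, grouped by role; filled and named, the 7 genes with an adjusted p under 0.05. Igf2 at 1.24 and Depdc5 at -0.82 lie farthest from 0.

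Of the ligands, Igf2, a growth factor made in adult brain mostly by choroid plexus and meninges, was called. At A_51_P516833 it read 9.41, 10.02, 10.46 and 9.33 in B6 and 11.46, 11.33, 10.49 and 10.90 in BTBR. The strains did not overlap, though BTBR replicate 3 and B6 replicate 3 were nearly equal. The difference was 1.24 ± 0.29 (SE, n = 4 per strain), with a limma adjusted p of 0.0333. The other Igf2 probe, A_51_P516826, differed by 1.29, with a limma adjusted p of 0.0662. The rank product called both probes (pfp 0.0013 and 0.0012).

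The Igf2 call was lost in 7 of 18 limma alternatives, without B6 replicate 1, 2 or 4, without BTBR replicate 1, 2 or 4 (adjusted p from 0.0592 to 0.101), and with the replicate number as a block. Choroid plexus markers, 7 tested and 0 called, had a mean level of 10.28 to 11.55 in B6 and of 12.28, 12.20, 10.54 and 10.44 on BTBR replicates 1 to 4. Meningeal markers, 7 tested and 0 called, ranged from 10.81 to 12.01 in B6 and were at 11.91, 11.09, 11.52 and 12.20 on BTBR replicates 1 to 4, lowest on replicate 2. On the B6 arrays both lists were highest on replicates 2 and 3, where Igf2 was highest too. Their part in the Igf2 difference was not tested. Igf1, the ligand of Igf1r, was read by 4 tested probes with differences of 0.16, 0.13, 0.11 and -0.10, none called (limma adjusted p from 0.551 to 0.728). The probe at 0.16 was called in 1 of 18 limma alternatives, without BTBR replicate 2 (0.29, adjusted p = 0.0348).

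**Figure D4:**
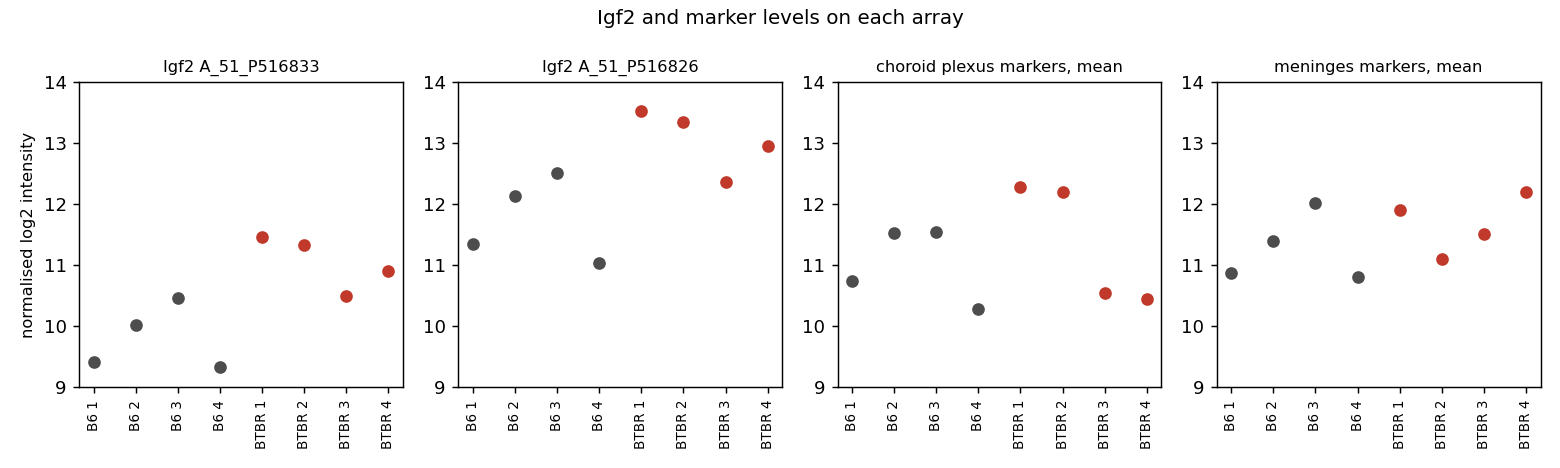
Normalized log2 intensity on each of the 8 arrays (B6 gray, BTBR red) for both Igf2 probes and for the mean over 7 choroid plexus and over 7 meningeal markers. BTBR replicates 1 and 2 are the highest arrays for Igf2 and for choroid plexus markers, at 12.28 and 12.20 for the latter.

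Inppl1, encoding the lipid phosphatase SHIP2 that removes the 5-phosphate from the product of PI3 kinase, rose in BTBR. It read 11.11, 11.20, 11.24 and 11.05 in B6 and 11.65, 11.83, 11.62 and 11.63 in BTBR, without overlap. The difference was 0.53 ± 0.07 (SE, n = 4 per strain; limma adjusted p = 0.0021). It was called in all 18 limma alternatives run and not by the rank product (pfp 0.0836).

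Next to Tsc2, its partner Tsc1, encoding hamartin, was read by 4 tested probes with differences of 0.13, -0.14, 0.12 and -0.14, none called (limma adjusted p from 0.347 to 0.69). Rheb, the GTPase that the TSC complex inhibits, differed by 0.03 (limma adjusted p = 0.855). Of the defining subunits of the mTOR complexes, Rptor of complex 1 differed by -0.07 (adjusted p = 0.665) and Rictor of complex 2 by -0.15 (adjusted p = 0.293) at their probes with the smallest p. For none of these 4 did the strains stand apart at the probe named. Rictor had 7 tested probes, and the others differed by -0.06 to 0.23. With the median over its probes Rictor differed by 0.04 (limma adjusted p = 0.875).

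In the amino acid branch 2 of 16 tested genes were called, or 12.5% against 10% of all gene names. They went in opposite directions, and both encode subunits of GATOR1, the complex that holds mTOR complex 1 off when amino acids are scarce. Depdc5 read 11.92, 11.77, 11.76 and 11.88 in B6 and 11.16, 10.73, 11.045 and 11.10 in BTBR at A_51_P313035. It fell by 0.82 on the log2 scale (SE 0.10, n = 4 per strain; limma adjusted p = 9.7e-04) and was called in all 18 limma alternatives run and by the rank product (pfp 0.0128). Its second tested probe, A_52_P979858, which was well above background on 6 of 8 arrays, differed by -0.04 (limma adjusted p = 0.885). Nprl2 was higher by 0.29 (SE 0.07; limma adjusted p = 0.0416), a call that was lost in 10 of 18 limma alternatives.

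Of 18 outputs tested, 3 were called, or 16.7% against 10% of all gene names. Gsk3a, encoding a kinase that Akt inhibits, read 9.26, 9.30, 9.23 and 9.36 in B6 and 8.85, 8.64, 8.51 and 8.75 in BTBR. It fell by 0.60 on the log2 scale (SE 0.08, n = 4 per strain, limma adjusted p = 0.0018). The difference was -0.94 with the processed signal and -0.46 in the authors' matrix. Gsk3a was called in all 18 limma alternatives run, but not by the rank product as run here (pfp 0.0582). The paper, from its own rank product, names Gsk3a among the genes changed in BTBR and in a further mouse model. Eif4b, encoding a translation initiation factor phosphorylated by S6 kinase, was higher by 0.55 at A_52_P269365 (SE 0.11; limma adjusted p = 0.0151, and 0.0506 without B6 replicate 2).

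The other Eif4b probes differed by 0.27 (adjusted p = 0.0764) and 0.05 (adjusted p = 0.87). Rps6, encoding the ribosomal protein that S6 kinase phosphorylates, was called at A_52_P531325 only, a dim probe that rose well above background on 3 arrays of B6 and on 0 of BTBR (means 8.15 and 7.51). In the quantile-normalized values its signal was at least 1.38-fold higher in B6, with BTBR replicates 2 and 4 taken at their lowest signal well above background and replicates 1 and 3, where that signal was lower still, at the probe's own reading. This is no bound across the signals used, since the difference was -0.32, a smaller one, in the authors' matrix and -3.12 from the processed signal, called in both. The bright Rps6 probe, A_51_P344734, differed by -0.04 (limma adjusted p = 0.828), with B6 at 14.94 ± 0.08 and BTBR at 14.90 ± 0.11 (SD, n = 4 each).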

How the data were processed

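The members and lists were chosen with earlier results of these data known. Spot intensity was deposited by the authors as Agilent Feature Extraction wrote it from each Cy3 array; the headers give its version as 10.7.3.1, the submitters' processing notes as 9.1. The deposited matrix holds log2 values that the authors had background subtracted and quantile normalized; its offset is not stated, and its median was 8.83 on each array. It was used as an alternative.

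Local background was subtracted from mean intensity (minimum 0.5), an offset of 50 was put on, and quantile normalization followed on the log2 scale. Spots with an outlier flag were dropped, replicate spots were summarized by their median, and a probe was kept when 75% or more of either strain's arrays read it well above background, 27982 of 41174. Strain was fitted with limma 3.58.1 in R 4.3.3, and Benjamini-Hochberg adjustment ran over all probes kept. Single probes were also compared by exact permutation of the arrays. The rank product was written out with 100 permutations. The limma and rank product steps were tested on simulated data. Coordinates are mm9, as the files give them. Named genes were all 8 members, 7 set pathway genes (1 of them not reported here), up to 3 called genes for each role, and the 3 genes most like the probe with the smallest p. Lists were written from general knowledge; those for microglia, oligodendrocytes, endothelium and pituitary had 2 of 7, 0 of 6, 0 of 5 and 0 of 4 tested genes called. Labels do not name separate litters, so p-values measure the spread between these mice only.
Alternatives changed the signal column, background correction, normalization, dim probe filter, flags, limma options, slide or replicate block, and probe summary, and left out each array in turn.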

Additional observations from a re-analysis of the deposited data

Results flagged for a closer look

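In 3 of 28 groups of 4 arrays, 1 array stood apart from the rest of its strain, the share of the group's range that lay between it and the nearest array being over the 95% critical value of Dixon's test. Chance gives about 1 such group in 20. At Igf1r A_51_P474538, BTBR replicate 4 was low, at 12.26 where the nearest BTBR array read 12.60 (ratio 0.885). At Akt2 A_52_P2977, BTBR replicate 2 was high, at 12.70 where the nearest read 12.34 (ratio 0.911). At Mtor A_51_P282179, B6 replicate 3 was low, at 11.005 where the nearest read 11.16 (ratio 0.853).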

How the results depend on the processing

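Among the 14 probes, the count called (1) became 0 with median centring, with no filter on dim probes and with the rank product, and ranged from 0 to 2 when 1 array was left out (0 without any one of B6 replicates 1 to 4 or BTBR replicates 1 and 2, and 2 without BTBR replicate 4). The 4 probes whose strains stood apart became 2 with median centring. The rank product called 1 of the 14 with the processed signal and 0 otherwise, and 1098 of all probes where limma called 2129. The 7 called pathway genes became 3 with the rank product and ranged from 4 (without B6 replicate 2) to 8 when 1 array was left out.

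Tsc2 was -0.42 (adjusted p = 0.146) with the processed signal, -0.44 (0.0595) with median centring and -0.38 (0.0533) without the dim filter. Under median centring Insr A_52_P494514 was at -0.017, Irs1 A_52_P175242 at -0.015, Akt1 A_51_P237553 at -0.056, Mtor A_51_P282179 at -0.0063 and Rheb at -0.037, each on the other side of 0. Leaving out 1 array, differences that crossed 0 ranged from -0.023 to 0.032 (Insr A_52_P494514), -0.059 to 0.10 (Igf1r A_52_P668647), -0.039 to 0.13 (Igf1r A_52_P634111), -0.064 to 0.13 (Irs1), -0.045 to 0.050 (Akt1) and -0.010 to 0.049 (Mtor A_51_P282179). The cause was not tested. No setting moved the median of all probes by 0.1 or more.

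Same-numbered arrays of the strains deviated from their strain means at r = -0.14, 0.51, -0.10 and 0.39. They also shared a slide, and differently numbered arrays were not compared, so these values cannot show whether the numbers pair the mice. With the replicate number as a block 1650 probes were called, 1 of the 14 and 5 pathway genes, Tsc2 with an adjusted p of 0.0291. Igf2 (adjusted p = 0.0925) and Nprl2 (0.0696) were lost there. With the slide as a block 2330 probes, 1 of the 14 and 9 pathway genes were called, Tsc2 with an adjusted p of 0.0071. With probes of a gene summarized by their median, 1430 gene names were called, Tsc2 among them (adjusted p = 0.0428). In place of 7 pathway genes 5 were called, and those lost were Igf2 (0.0505) and Eif4b (0.865). Rps6 stayed called (0.0081) on the median of its dim and its bright probe. Single probes have no value in that setting. Signal over background limits Mtor A_52_P67643, Insr A_52_P6490, Rps6 A_52_P531325 and the untested Irs1 probe.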
